A study of Mus musculus with 3 samples.

Results

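The genes described here are 10 genes that encode the TAM receptors of efferocytosis, their ligand and a set of macrophage antigens, taken from 21728 protein-coding genes on the autosomes and chromosome X. They were chosen by name and comprise the receptor genes Mertk, Axl and Tyro3, the ligand gene Gas6, and the antigen genes Cd68, Cd163, Mrc1 (encoding CD206), Vcam1 (encoding CD106), Siglec1 and Adgre1 (encoding F4/80). They were read in long-term hematopoietic stem cells (HSCs) from the bone marrow of 24-month-old wild-type female C57BL/6 mice. The cells were enriched for c-Kit, stained with oligonucleotide-tagged antibodies, sorted as lineage-negative cells with Sca-1, c-Kit and CD150 and without CD48 and CD34, and permeabilised with digitonin, so that 3 libraries were made from 1 pool of cells: ATAC, gene expression and antibody tags. DOGMA-seq is the name of this protocol, which reads open chromatin, RNA and bound antibodies from the same droplet. Because 1 pool was measured, no comparison has biological replicates and no test was possible. The intervals given below are exact 95% intervals that cover counting error only.

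Efferocytosis is the engulfment of dying cells. Phosphatidylserine exposed on a dying cell is bound by the bridging proteins GAS6 and protein S. These are recognised by the receptor tyrosine kinases of the TAM family, TYRO3, AXL and MERTK, though not each protein by each receptor. The receptors then signal to the cytoskeleton so that the corpse is taken up and digested in lysosomes. In the bone marrow this work is done mainly by resident macrophages, which carry MERTK and AXL and are identified by F4/80, CD169 (encoded by Siglec1), VCAM1, CD163, CD206 and the lysosomal glycoprotein CD68. VCAM1 is also an adhesion molecule of stromal and endothelial cells, and GAS6 is made by several stromal cell types.

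The products of 5 of the genes were also read with antibodies. The tags of these antibodies are shown because every antibody comparison below rests on counting them, and no capitals are used as no base was singled out:
MERTK: gacgaacgtccgcg
CD106: cgttcctacctacct
CD68: ctttctttcacggga
CD163: gacgcgcgttgtca
CD206: ggtcgactaggtcg
All 12 tags of the panel were different, and the closest pair involving these antibodies was MERTK and CD163, whose tags of 14 bases differed at 6 positions. The CD106 and CD68 tags, each of 15 bases, differed from each other at 9 positions. CD68 is mostly an intracellular protein, and the antibodies were applied to intact cells.

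Of 4369 barcodes called as cells, 3724 had antibody counts and 3629 had at least 10 tags and were kept. The kept cells held 38498362 nuclear fragments, with a median of 10287 per cell (range 3853 to 45069), a median of 1978 RNA UMIs and a median of 29 tags. An excess of overlapping fragments, as a droplet with more than 1 cell would give, was found in 271 kept cells (7.47%). As a check of the sorted cell type, 6 of 12 HSC marker genes and 3 of 15 other macrophage marker genes had a promoter above the median coding gene, as did 5 of 9 endothelial and stromal markers and 3 of 7 megakaryocyte markers. By definition 50% of all coding genes lie above it, so this count does not mark the cells as HSCs. Among the HSC markers, the gene window level was highest for Gata2 (8.61 FPKM, fragments per kb of window per 1000000 nuclear fragments) and Hoxa9 (6.59). Among the macrophage markers, Vsig4 (0.0485) and Marco (0.0496) were lowest, and Marco had no promoter fragment.

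The 10 genes spanned the range from open to closed chromatin in these HSCs, and the TAM receptor and ligand genes were more open than most of the antigen genes. A gene window was the gene body with 2 kb upstream, a promoter was 1 kb on each side of the annotated gene start, and both levels are given as FPKM. At the promoter, Mertk (11.6) and Gas6 (9.39) lay above the median coding gene (5.11), Cd68 (4.75) lay below it by less than counting error, and Axl, Tyro3, Vcam1, Siglec1, Mrc1, Adgre1 and Cd163 followed in that order from 2.97 down to 0.130. Neighbours in this order had intervals that did not overlap, except Vcam1 and Siglec1, and Siglec1 and Mrc1, which were not separated beyond counting error. Over the gene window the order was different. Cd68 was highest at 3.38, followed by Axl at 1.34, Gas6 at 1.02 and Tyro3 at 0.953, all above the median coding gene at 0.835 (the intervals of Gas6 and Tyro3 overlapped), and Adgre1 was lowest at 0.0262. Olfactory receptor genes, which are silent in blood cells, had a median window level of 0.0177 over 1092 genes, and Adgre1 was the gene of the 10 nearest to it. Pooled over all their bases, these genes stood at 0.0649, above Adgre1.

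**Figure D1:**
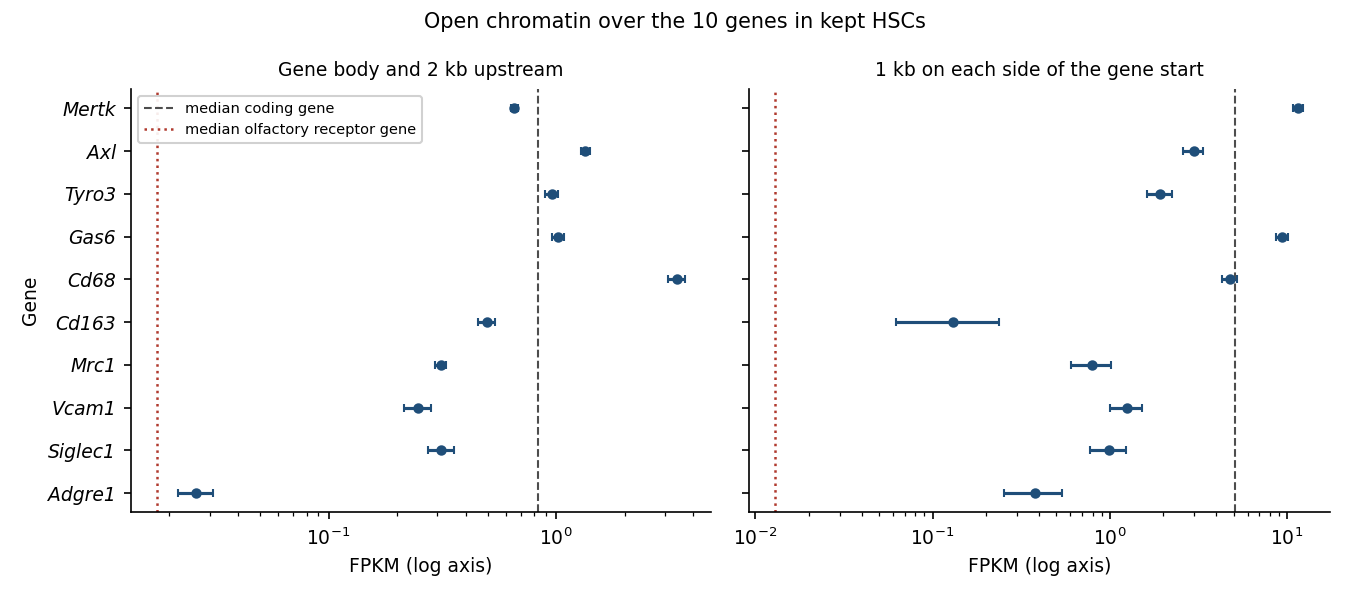
Levels of open chromatin over the 10 genes in the 3629 kept HSCs, as FPKM on a log axis, for the gene window (left) and the promoter (right), with points for the level and bars for exact 95% Poisson intervals. The dashed line marks the median coding gene (0.835 and 5.11) and the dotted line the median olfactory receptor gene (0.0177 and 0.0130), and only Mertk and Gas6 lie to the right of the dashed line at the promoter.

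Mertk encodes the receptor that macrophages use to take up apoptotic cells at rest. The gene (chr2:128698956-128802894, plus strand, mm10) had 2673 fragments in its window, in 1700 of 3629 cells (46.8%, interval 45.2 to 48.5). Of these, 894 lay at the promoter, so that 33.4% of the fragments fell in 1.89% of the window. Its promoter level stood at the 67.4th percentile of coding genes and its window level, over 105.9 kb, at the 44.0th. A peak of open chromatin was looked for in windows of 500 bp with at least 100 transposase insertions, a limit chosen after the data were seen. The 2 richest windows of Mertk lay side by side, centred at -551 bp (886 insertions) and -51 bp (498 insertions) from the gene start. A further 6 lay inside the gene more than 1 kb from the start, all of them in introns, and the richest of these was 52199 bp into the gene with 274 insertions in 163 cells. The promoter is shown because it was the most open of the 10, with matches to the GC box in capitals, together with the central 300 bases of the richest intronic window, in which matches to the PU.1 and TATA box letters are in capitals:
Mertk promoter, chr2:128698665-128698914, plus strand: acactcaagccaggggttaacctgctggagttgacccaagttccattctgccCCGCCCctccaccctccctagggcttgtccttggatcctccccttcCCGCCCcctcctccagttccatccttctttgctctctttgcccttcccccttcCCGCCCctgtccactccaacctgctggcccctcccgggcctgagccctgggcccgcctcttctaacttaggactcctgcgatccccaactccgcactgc
Mertk intronic window, chr2:128751006-128751305, plus strand: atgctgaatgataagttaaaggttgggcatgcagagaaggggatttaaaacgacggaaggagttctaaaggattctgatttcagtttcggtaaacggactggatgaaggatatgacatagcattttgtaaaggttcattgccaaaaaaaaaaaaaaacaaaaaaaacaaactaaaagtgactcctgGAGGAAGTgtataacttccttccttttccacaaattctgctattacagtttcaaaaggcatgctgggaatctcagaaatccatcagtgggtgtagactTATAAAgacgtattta

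Axl encodes the receptor that is raised in inflammation and binds GAS6 most tightly. Its window (chr7:25757273-25788705, minus strand) had 1727 fragments in 1231 cells (33.9%), and 229 of them, 13.3%, were at the promoter, which stood at the 42.1st percentile. Here the openness was inside the gene. The richest windows lay 13983, 11783, 7083 and 5983 bp from the start, with 322, 284, 258 and 232 insertions, each with more than the 216 insertions of the window 33 bp from the start. In all, 7 open windows of Axl lay more than 1 kb from its start. The tall signal beyond the end of Axl, up to 3887 insertions in 500 bp, lay at the start of the neighbouring gene Hnrnpul1 and outside the Axl window.

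Tyro3 encodes the third TAM receptor, best known from the nervous system. Its window (chr2:119797733-119818104, plus strand) had 821 fragments in 669 cells (18.4%). The promoter at the first annotated start held 148 fragments, while the richest window of the gene lay 1849 bp downstream with 537 insertions in 316 cells, next to the start that RefSeq gives, and the most open of the annotated starts of Tyro3 held 578 fragments within 1 kb on each side. Counted at that start, Tyro3 reached 7.50 FPKM, above the median coding promoter of 5.11. That median takes every gene at its first annotated start, not at its most open one, so the comparison is not like for like.

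Gas6 encodes the bridging ligand. Its window (chr8:13465374-13494490, minus strand) had 1220 fragments in 956 cells (26.3%), and 723 of them (59.3%) were at the promoter, at the 62.0th percentile. The richest window lay 117 bp from the start with 969 insertions, the highest count of any window belonging to one of the 10 genes, and 1 open window of 287 insertions was found in an intron, 22167 bp from the start. The window of Gas6 also takes in the end of Tmem255b. The promoter is shown as that of the ligand, with GC box matches in capitals:
Gas6 promoter, chr8:13494536-13494785, minus strand: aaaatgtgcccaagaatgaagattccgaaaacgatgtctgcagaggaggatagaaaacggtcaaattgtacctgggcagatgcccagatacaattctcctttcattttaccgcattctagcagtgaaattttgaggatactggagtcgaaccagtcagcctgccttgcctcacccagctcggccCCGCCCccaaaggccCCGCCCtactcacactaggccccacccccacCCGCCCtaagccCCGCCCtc

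Cd68 encodes a glycoprotein of lysosomes and endosomes. It is a short gene (chr11:69664213-69666153, minus strand) in a dense neighbourhood, and its window had 512 fragments in 427 cells (11.8%). The start of Eif4a1 lies upstream with 3825 insertions in 500 bp, and that of Mpdu1 lies downstream with 2797. These starts lie outside the Cd68 window by more than 1 kb, while that of the snoRNA gene Gm24029 lies inside it. When bases within 1 kb of another gene's start were left out, 432 of the 512 fragments remained. A separate peak stood at the Cd68 start itself, centred at -59 bp, with 351 insertions in 205 cells. The promoter level was at the 48.9th percentile, so the window level at the 85.8th percentile goes with a window that is mostly promoter (71.5% of the fragments). Its promoter is shown because it alone among the 7 promoters read held AP-1 matches, which are in capitals with 1 GC box match:
Cd68 promoter, chr11:69666171-69666420, minus strand: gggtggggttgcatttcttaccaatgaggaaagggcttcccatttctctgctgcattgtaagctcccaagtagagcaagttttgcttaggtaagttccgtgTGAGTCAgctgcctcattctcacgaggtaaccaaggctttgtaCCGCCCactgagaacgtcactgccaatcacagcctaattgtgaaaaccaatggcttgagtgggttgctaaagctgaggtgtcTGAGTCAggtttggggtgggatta

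Cd163, encoding the haemoglobin scavenger receptor, and Mrc1, encoding the mannose receptor CD206, had promoters below the median coding gene and open chromatin inside the gene. The Cd163 window (chr6:124304656-124330527, plus strand) had 532 fragments in 460 cells (12.7%), but its promoter had 10, at the 20.7th percentile. Another annotated start, that of a transcript beginning inside the gene, held 111 fragments within 1 kb on each side (1.44 FPKM), still under the median coding promoter. The signal stood in 1 place, an intronic window 17149 bp from the start with 417 insertions in 251 cells, together with its flanks. The Mrc1 window (chr2:14229392-14332057, plus strand) had 1251 fragments in 997 cells (27.5%) with 61 at the promoter, at the 32.8th percentile. It held 5 open windows, all of them intronic and more than 1 kb from the start, led by those at 66099 bp (447 insertions in 257 cells) and 83299 bp (303 insertions in 160 cells). For comparison, 73.2% of coding genes had at least 1 open bin of 500 bp on a fixed grid over their window, with a median of 3 bins, against 2 bins for Cd163 and 6 for Mrc1. The promoters and the richest intronic windows of both genes are shown because all open windows inside these genes lay in introns, away from the promoter. The Mrc1 promoter is printed without the 22 bases that GENCODE places in its first exon. GC box and RUNX matches are in capitals, and sequences without capitals held none of the letters searched:
Cd163 promoter, chr6:124304401-124304650, plus strand: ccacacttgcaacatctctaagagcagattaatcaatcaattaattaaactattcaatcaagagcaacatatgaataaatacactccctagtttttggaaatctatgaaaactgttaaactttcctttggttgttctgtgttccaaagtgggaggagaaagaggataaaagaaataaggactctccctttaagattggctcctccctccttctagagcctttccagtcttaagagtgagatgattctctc
Cd163 intronic window, chr6:124321656-124321955, plus strand: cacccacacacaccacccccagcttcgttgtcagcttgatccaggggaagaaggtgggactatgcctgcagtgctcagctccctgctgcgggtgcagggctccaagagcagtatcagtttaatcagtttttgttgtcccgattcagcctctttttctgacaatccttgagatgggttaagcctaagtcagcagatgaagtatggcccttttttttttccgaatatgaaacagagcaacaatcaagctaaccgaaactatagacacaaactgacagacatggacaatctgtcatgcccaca
Mrc1 promoter, chr2:14229164-14229391, plus strand: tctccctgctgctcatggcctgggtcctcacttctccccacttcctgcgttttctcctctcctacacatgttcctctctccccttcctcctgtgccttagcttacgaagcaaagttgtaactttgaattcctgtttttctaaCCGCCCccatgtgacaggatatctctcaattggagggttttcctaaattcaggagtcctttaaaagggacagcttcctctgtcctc
Mrc1 intronic window, chr2:14295342-14295641, plus strand: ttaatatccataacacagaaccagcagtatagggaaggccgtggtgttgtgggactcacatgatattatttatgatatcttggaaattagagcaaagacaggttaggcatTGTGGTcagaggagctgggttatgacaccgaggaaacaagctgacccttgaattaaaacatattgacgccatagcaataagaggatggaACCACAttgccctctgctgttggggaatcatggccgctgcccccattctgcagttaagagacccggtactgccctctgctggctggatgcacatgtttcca

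Vcam1, Siglec1 and Adgre1 had the fewest fragments over their windows. Vcam1 (chr3:116109949-116129688, minus strand) had 206 fragments in 186 cells (5.13%), with 1 open window of 113 insertions at its start, where the antisense gene Gm43109 overlaps it. Siglec1, encoding the sialic acid receptor CD169 (chr2:131069220-131086765, minus strand), had 235 fragments in 210 cells (5.79%) and no open window in the gene, although windows of 571 and 341 insertions lay at -9704 and -8454 bp from its start. Adgre1 (chr17:57358691-57483527, plus strand) had 128 fragments over a window of 127 kb, in 113 cells (3.11%), and no open window in it or within 10 kb of it. F4/80, its product, is the standard antigen by which mouse macrophages are sorted.

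**Figure D2:**
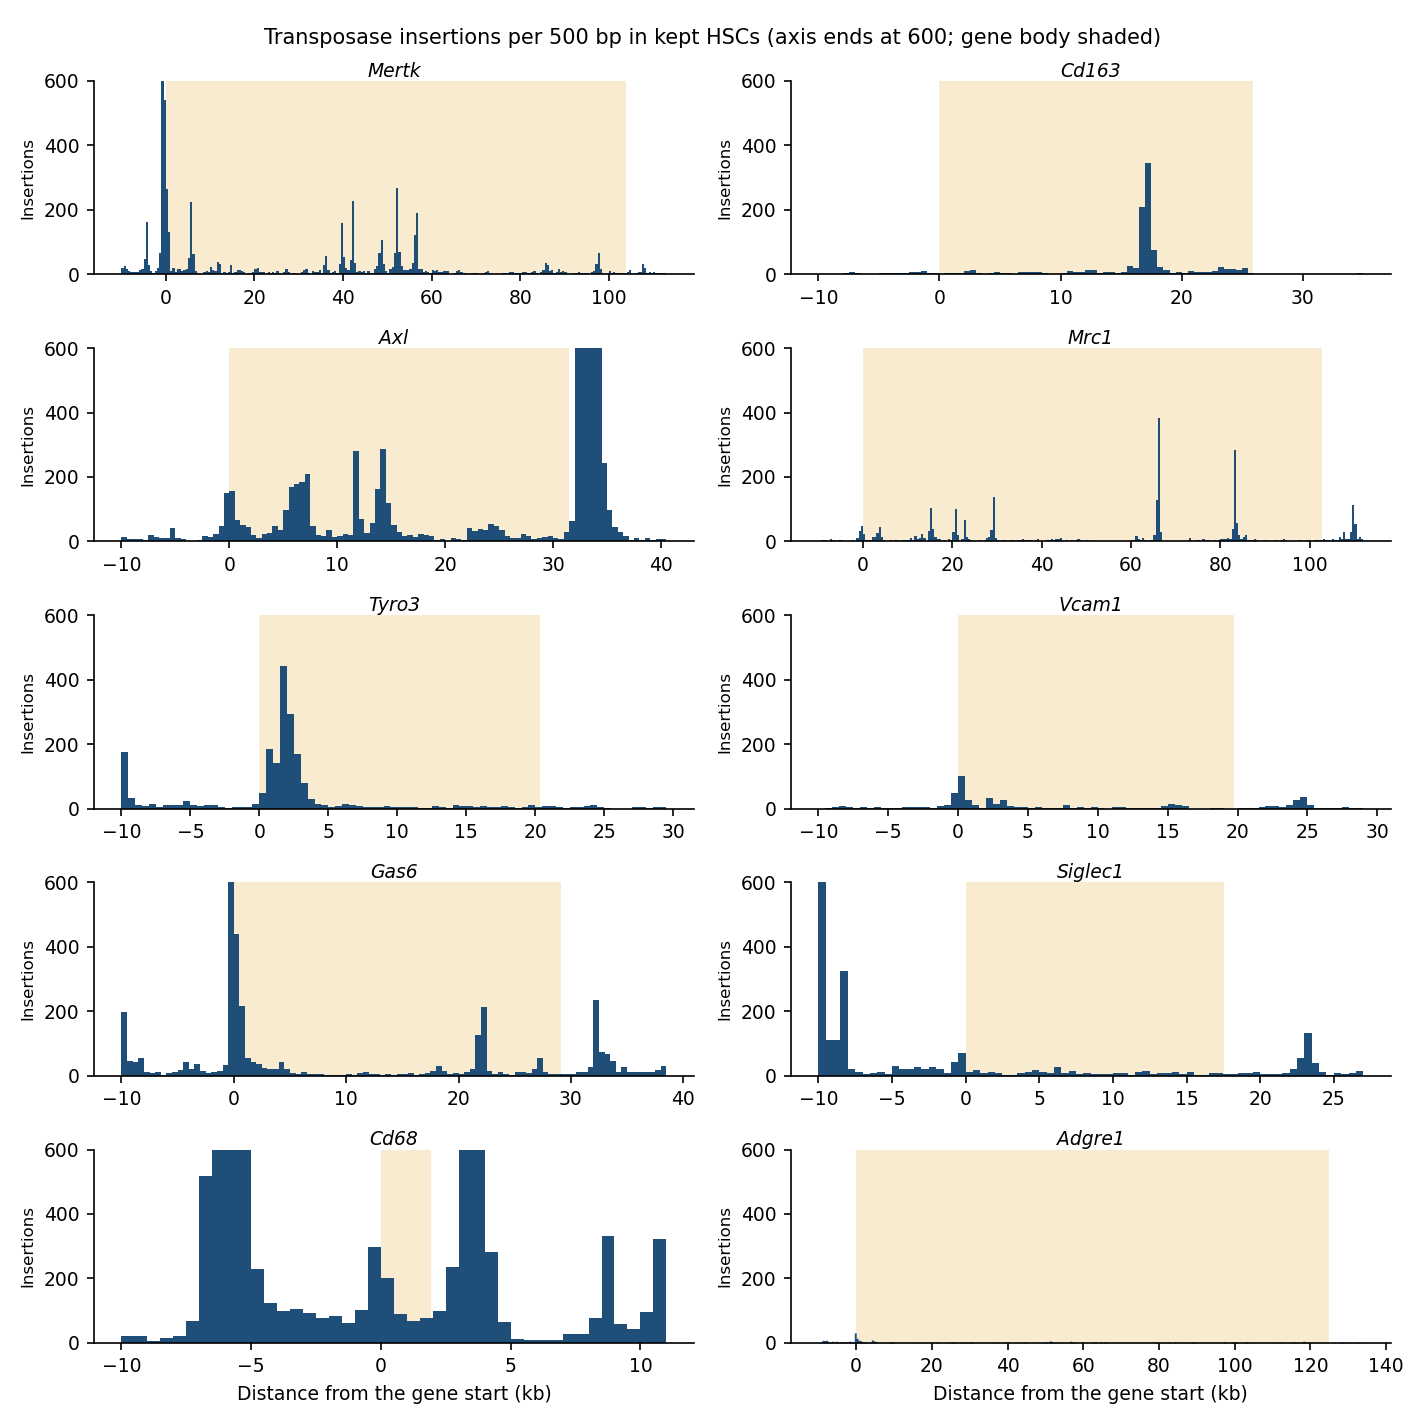
Transposase insertions of the kept HSCs in bins of 500 bp, by distance in kb from the gene start in the direction of transcription, with the gene body shaded and the axis ending at 600 insertions. Mertk and Gas6 rise at the start, Cd163 (17149 bp) and Mrc1 (66099 bp) rise inside the gene, the columns past the axis beside Axl and Cd68 belong to starts of other genes, and Adgre1 stays flat.

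Across all coding genes, promoters rich in CpG were the more open ones. With the observed over expected CpG ratio counted over 500 bp on each side of the start, 46.3% of coding genes were above 0.6, with a median promoter level of 14.8, while the others had a median of 0.338. Gas6 (0.668) was the single gene of the 10 above 0.6, and Mertk (0.568) lay just under it. The ratio was counted at the first annotated start of each gene, so the CpG content at the more open start of Tyro3 was not measured. Against genes of its own CpG class, Gas6 was at the 29.5th percentile, whereas Mertk was at the 93.0th, Cd68 at the 80.4th, Axl at the 73.2nd and Tyro3 at the 67.7th percentile. Vcam1, Siglec1, Mrc1 and Adgre1 lay between the 51.3rd and the 63.5th percentile of the genes low in CpG, and Cd163 at the 37.7th. Of the 9 genes low in CpG, Cd163 lay below the middle of its class, Adgre1 was not separated from it beyond counting error, and the other 7 lay above it.

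**Figure D3:**
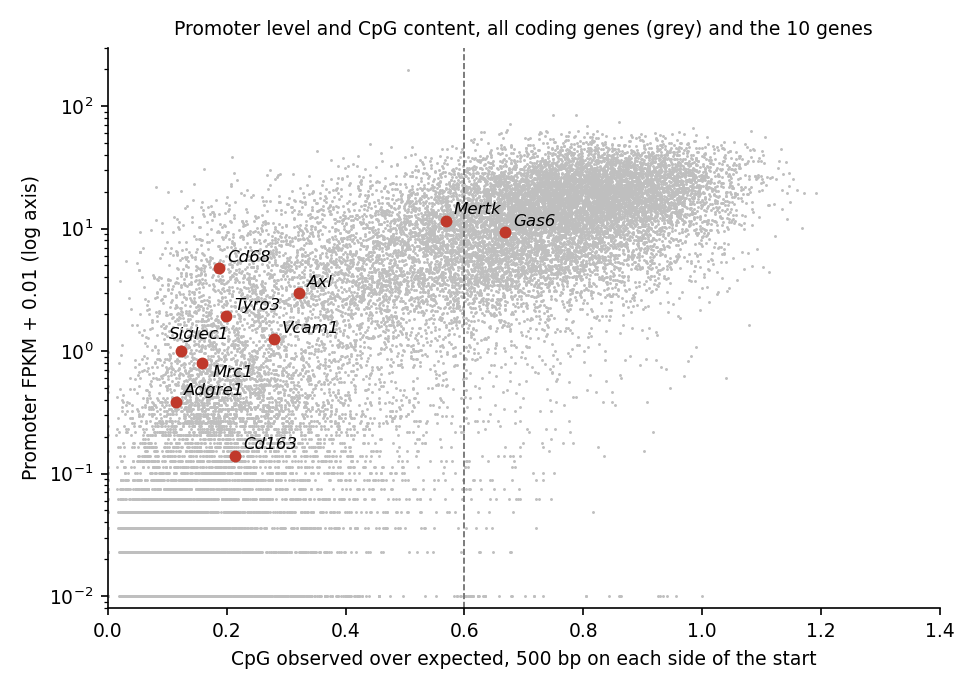
Promoter level in the kept HSCs (FPKM plus 0.01, log axis) against the observed over expected CpG ratio of the promoter for all coding genes (grey points) and the 10 genes (red points). The dashed line marks a ratio of 0.6, with Gas6 to its right at 0.668 and the other 9 genes to its left.

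Motif letters were searched on both strands in the 250 bases upstream of the RefSeq start (GRCm38.p6) for the 7 genes that the table of promoters holds, namely Mertk, Axl, Tyro3, Gas6, Cd68, Cd163 and Mrc1. The GC box (GGGCGG) was found in 6 of the 7, all but Cd163, with 4 matches in Gas6, 3 each in Mertk and Tyro3 and 1 each in Axl, Cd68 and Mrc1, and it occurs in 44.5% of the 16433 promoters read. AP-1 (TGACTCA) matched 2 times in Cd68 and in no other of the 7, and is in 3.98% of promoters. Of the 7, none held the letters of GATA factors, which were searched as AGATAA and are in 8.86% of promoters, or those of RUNX factors, searched as TGTGGT and found in 12.2%. None held PU.1 letters either, searched as GAGGAAGT and found in 2.23%, nor those of other ETS factors, searched as CCGGAAG, which share their last letters with PU.1 and are in 9.51%. The TATA box, searched as TATAAA and found in 11.9% of promoters, was also absent from the 7 windows. In the intronic windows, RUNX matched 2 times in Mrc1 and PU.1 and the TATA box 1 time each in Mertk, against 23.3%, 3.75% and 12.4% of 51694 open windows that lay more than 1 kb from any coding gene start. A match describes the letters only.

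Other genes of efferocytosis were read by their role in the pathway. Of 30 such genes, 22 (73.3%) had a promoter above the median coding gene, and 16 of the 22 belong to signalling and digestion. Among the receptors and ligands, the class of Mertk, Axl, Tyro3 and Gas6, the count was 6 of 14, beside 2 of these 4. All 8 genes of engulfment signalling did so, with Crk (33.7) and Rac1 (22.6) highest, and all 8 genes of digestion and lipid handling, with Nr1h2 (28.5) and Lamp1 (19.9) highest. Of the other receptors, 4 of 10 did so, with the integrin genes Itgav (12.7) and Itgb3 (11.8) highest and the scavenger receptor gene Cd36 (0.0389) lowest. Of the other ligands and bridges, 2 of 4 did so, with Mfge8 (12.9) and Pros1 (6.05), which encodes protein S, highest.

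The antibodies against the products of 5 of the genes differed widely in how many cells they tagged. MERTK was read in 1461 of 3629 cells (40.3%, interval 38.7 to 41.9), CD106 in 920 (25.4%), CD68 in 281 (7.74%), CD206 in 82 (2.26%) and CD163 in 71 (1.96%). Most tagged cells had a single tag. At least 2 tags were counted in 564 cells for MERTK, 250 for CD106, 58 for CD68, 12 for CD163 and 2 for CD206. Antibodies that stained strongly had been diluted by the authors to even out the panel, so the number of tagged cells does not rank the amounts of the proteins. None of the 5 antibodies tagged 1528 cells (42.1%), and no cell carried all 5. Tagged and untagged cells were of like depth. For MERTK the medians were 10285 and 10288 nuclear fragments, 2004 and 1953 RNA UMIs and 29 and 28 other tags. Of the MERTK tagged cells, 8.97% had an excess of overlapping fragments and of the untagged cells 6.46%, with 9.67% and 6.72% for CD106, 10.3% and 7.23% for CD68, 8.45% and 7.45% for CD163, and 7.32% and 7.47% for CD206. Without these cells, 3358 remained, and the log2 ratio of Mertk by MERTK tag given below was 0.09 (interval -0.03 to 0.21).

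The question for each antibody was whether cells with its tag had more open chromatin at the antigen's own gene than cells without it. Mertk had 1152 fragments in MERTK tagged cells and 1521 in untagged cells, or 0.689 and 0.632 FPKM, a log2 ratio of 0.12 (interval 0.01 to 0.24). This is the 1 case of 5 in which the interval left out 0. At the promoter alone the log2 ratio of Mertk was 0.06 (interval -0.14 to 0.25). Vcam1 had 52 and 154 fragments in CD106 tagged and untagged cells, a log2 ratio of -0.04 (interval -0.53 to 0.41). Cd68 had 38 and 474 fragments by CD68 tag, a log2 ratio of -0.08 (interval -0.62 to 0.38). Cd163 had 14 and 518 fragments by CD163 tag, 0.51 on the log2 scale (interval -0.42 to 1.22), and Mrc1 had 19 and 1232 by CD206 tag, -0.54 (interval -1.31 to 0.07). A difference of 1.5-fold, 0.58 on the log2 scale, lay outside the intervals of Mertk and Vcam1 in both directions, whereas an increase of this size lay within that of Cd163 and a decrease within those of Cd68 and Mrc1.

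Across all 50 pairs of these antibodies and genes, few values stood apart. Genes were counted as past the limit if they had at least 200 fragments and a ratio of 1.5-fold or more, and 9 of the 10 genes, all but Adgre1, had enough fragments. By MERTK tag 0 of 9 passed, against 0.0124% of all coding genes with enough fragments. By CD106 tag 0 of 9 passed (0.0435% of all), by CD68 tag 0 of 9 (1.08%) and by CD163 tag 0 of 9 (8.89%). By CD206 tag 1 of 9 passed (7.3% of all), namely Siglec1, which was lower with 2 fragments in tagged cells and 233 in untagged cells and a log2 ratio of -1.10 (interval -4.47 to 0.45). When the interval was read instead of the fold, 1 of 10 genes left out 0 by MERTK tag, namely Mertk itself, against 7.13% of all coding genes. None of the 10 did so by CD106 (6.53% of all), CD68 (6.46%), CD163 (5.52%) or CD206 tag (5.64%). The share of 1 in 10 is thus near the share of all genes. At the promoter, where 4 of the 10 genes had at least 200 fragments, the interval left out 0 for 1 of 4 by CD106 tag, against 6.35% of all coding promoters with enough fragments. This was Axl, with 43 and 186 fragments and a log2 ratio of -0.58 (interval -1.11 to -0.11). It did so for 0 of 4 by MERTK (6.39% of all), CD68 (5.76%), CD163 (5.36%) and CD206 tag (4.8%). Among the 9 genes with enough fragments, the value farthest from 0 by CD106 tag was that of Mrc1, with 355 and 896 fragments and a log2 ratio of 0.18 (interval -0.00 to 0.36), and by CD68 tag that of Axl, with 115 and 1612 fragments and -0.26 (interval -0.55 to 0.01).

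**Figure D4:**
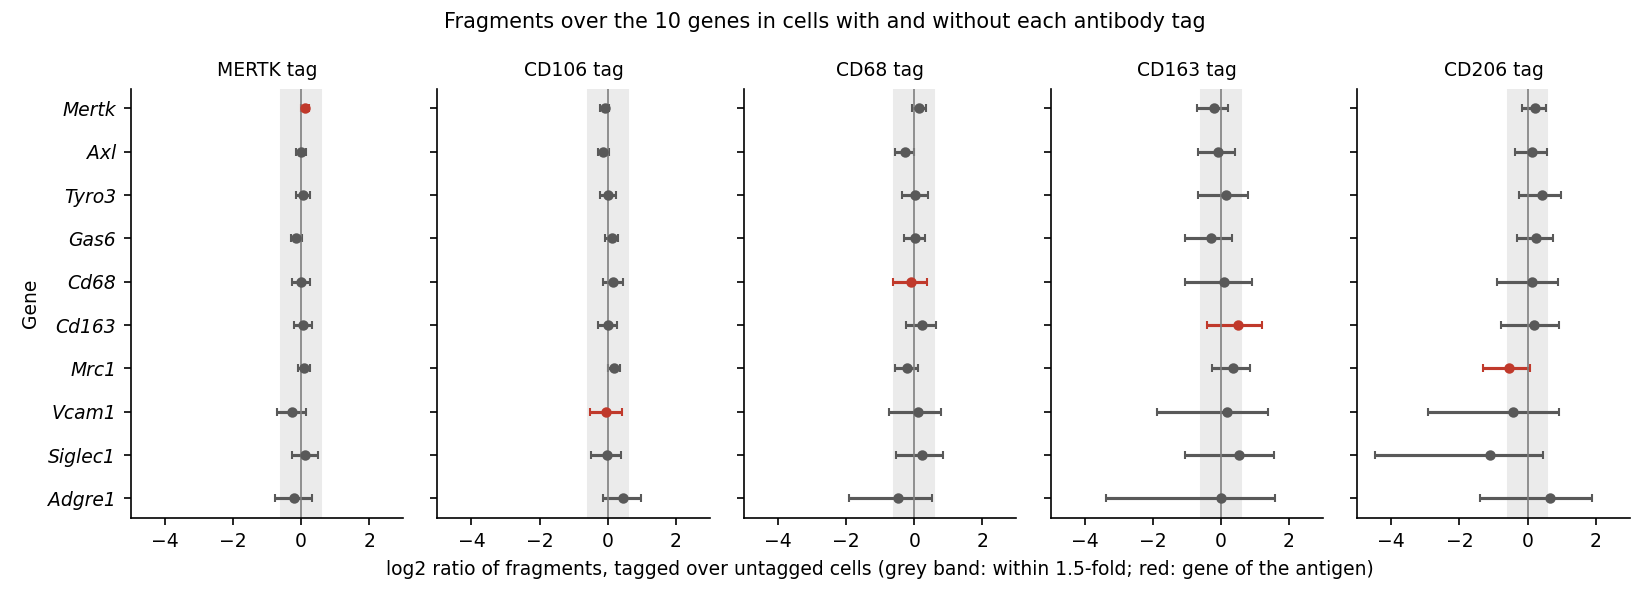
Log2 ratio of fragments over each gene window in cells with a tag against cells without, for the antibodies MERTK, CD106, CD68, CD163 and CD206, with exact 95% intervals. Red points mark the gene of the antigen and the grey band spans ratios within 1.5-fold; the Mertk point by MERTK tag is at 0.12, and the intervals are narrowest for MERTK (1461 tagged cells) and wide for CD163 (71) and CD206 (82).

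Summed over the other macrophage markers, tagged and untagged cells lay close together. The summed level of the 15 other macrophage markers was 225 fragments per 1000000 in MERTK tagged cells and 215 in untagged cells, a log2 ratio of 0.07 whose interval (0.0027 to 0.13) left out 0, as did that of Mertk. It was 217 and 220 by CD106 tag, 206 and 220 by CD68 tag, 217 and 219 by CD163 tag, and 209 and 219 by CD206 tag, with intervals that held 0. Of 60 such sums, for 12 lists by 5 tags, 4 had an interval that left out 0. None of the 9 markers with enough fragments was past 1.5-fold by MERTK, CD106 or CD206 tag, and 1 of 9 was lower by CD68 tag (1.08% of all coding genes were past 1.5-fold) and 1 of 9 by CD163 tag (8.89%). No marker was without fragments in a tagged group except 2 in the 71 CD163 tagged cells. The part of cells of another type in the ratios above was not tested. Of the 30 pathway genes, none was past 1.5-fold by MERTK or CD106 tag, 1 was lower by CD68 tag (1.08% of all coding genes past 1.5-fold), 1 by CD163 tag (8.89%) and 1 by CD206 tag (7.3%), and none was higher by any of the 5 tags. Summed over each of the 4 groups of pathway genes, the interval left out 0 in 2 of 20 cases. The 4 other ligands and bridges were lower by MERTK tag, with a log2 ratio of -0.14 (interval -0.25 to -0.04), and the 10 other receptors were lower by CD163 tag, with -0.20 (interval -0.35 to -0.05).

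The antibodies were also read against genes other than their own. With cells split at the median of each of the 12 antibodies of the panel, MERTK came 5th in order from the highest ratio for Mertk, where the values of the 11 other antibodies ran from -0.22 to 0.26. Of these, CD183 (0.26, interval 0.05 to 0.47) and CD61 (0.15, interval 0.04 to 0.26) also had intervals that left out 0, and the rest held 0. CD68 came 9th for Cd68, CD106 8th for Vcam1, CD206 12th for Mrc1, and CD163 1st for Cd163, with the values of the 11 others between -0.05 and 0.22. The interval of that 1st place, -0.42 to 1.22 with 14 fragments in tagged cells, took in the values of the 11 others. Cd68 was lower by CD61 (-0.34, interval -0.61 to -0.09) and by CD27 (-0.33, interval -0.66 to -0.01). Mrc1 was higher by CD274 (0.17, interval 0.0045 to 0.33). All other intervals of Cd68, Cd163, Mrc1 and Vcam1 held 0. The tags met in the same cells somewhat more often than their shares multiply to. MERTK and CD106 were both read in 438 cells against 370 from their shares, and MERTK and CD206 in 46 against 33.0. CD68 and CD106 met in 110 against 71.2 and CD68 and CD163 in 9 against 5.50, whereas CD163 and CD206 shared 1 cell against 1.60. No intervals were taken for these pairs. The part of tag depth and of droplets with more than 1 cell was not tested.

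The MERTK antibody tagged enough cells to be read at 3 levels, in 2168 cells with 0 tags, 897 with 1 and 564 with at least 2. Median depth was 10288, 10270.0 and 10303 nuclear fragments. The Mertk window stood at 0.632 (interval 0.601 to 0.665), 0.699 (0.648 to 0.752) and 0.674 (0.612 to 0.740) FPKM, so the intervals of all 3 groups overlapped. Between the outer groups, at least 2 tags over 0, the log2 ratio of Mertk was 0.09 (interval -0.06 to 0.25). Axl stood at 1.34, 1.32 and 1.38, and Tyro3 at 0.941, 0.920 and 1.05, with overlapping intervals. Mrc1 stood at 0.303, 0.353 (0.3169 to 0.3913) and 0.273 (0.2340 to 0.3162), so its groups with 1 and with more tags had intervals that narrowly missed each other. Between the outer groups the log2 ratio of Mrc1 was -0.15 (interval -0.40 to 0.09). Gas6, the gene of the ligand, stood at 1.06, 1.03 and 0.860, and between the outer groups its log2 ratio was -0.30 (interval -0.55 to -0.05). Vcam1 stood at 0.265, 0.253 and 0.164 with 131, 53 and 22 fragments, a log2 ratio of -0.67 (interval -1.41 to -0.03). Vcam1 had fewer than 200 fragments in these 2 groups. Of the 7 genes with enough, 0 were past 1.5-fold, against 0.0831% of all coding genes, and 1, Gas6, had an interval that left out 0, against 7.06% of all.

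**Figure D5:**
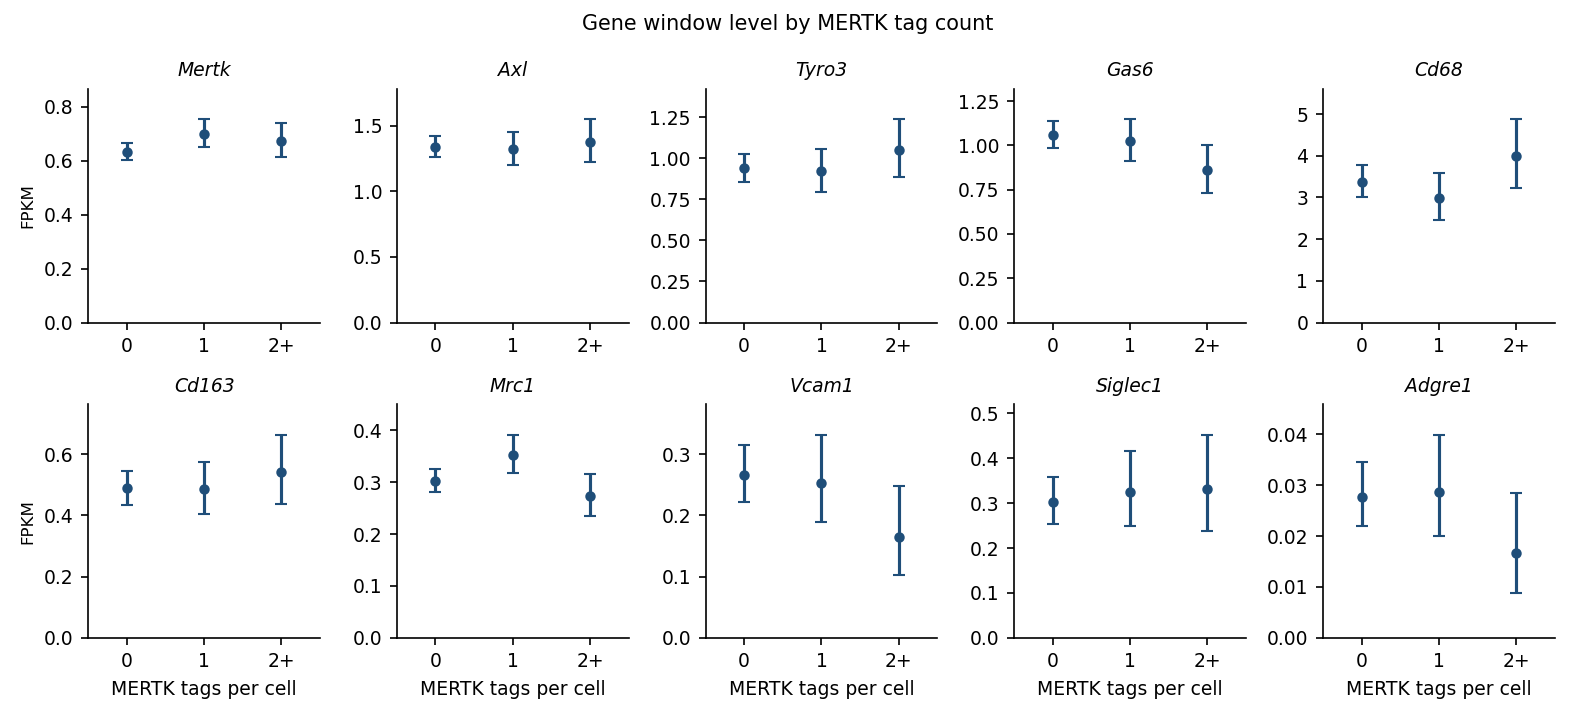
Gene window level in FPKM by the number of MERTK tags per cell (0, 1, and 2 or more), with exact 95% Poisson intervals, each panel on its own axis from 0. Mertk stands at 0.632, 0.699 and 0.674, and Gas6 and Vcam1 are lowest in the 564 cells with 2 or more tags.

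The gates with which the study separates platelet-biased (PLT) from multi-lineage (MUL) HSCs use CD61, CD274, CD357 and CD27, none of which is a product of the 10 genes. Split at the median of each antibody, the PLT gate held 342 cells and the MUL gate 61. Counts were not scaled by depth, and cells at the median were taken as low. For CD27, with a median of 1, only 825 of 3629 cells were thus high. The sizes of the gates therefore do not give the shares of PLT and MUL HSCs. The Mertk window had 275 fragments in the PLT gate and 50 in the MUL gate, a log2 ratio of -0.11 (interval -0.54 to 0.36). Mertk was the single gene of the 10 with at least 200 fragments in the gates, and it was not past 1.5-fold, against 2.64% of all coding genes. Cd68 had 61 and 7 fragments, with an interval of -0.57 to 1.94. No interval of the 10 left out 0, and the share of all coding genes whose interval did so was not taken for the gates.

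Barcodes that were not called as cells held 2794021 nuclear fragments and were set beside the kept cells. They are not only empty droplets, since some were as deep as kept cells, with 13498, 6905 and 5646 fragments among those that gave fragments to the 10 genes. Of the 9 genes with enough fragments, 0 were past 1.5-fold between kept cells and these barcodes, against 6.78% of all coding genes, and the median log2 ratio of the 9 was 0.11, against 0.18 over all genes. Mertk had 2673 fragments in kept cells and 167 in the others, a log2 ratio of 0.21 (interval -0.01 to 0.45). Adgre1 was lower in kept cells, with 128 fragments against 46 and a log2 ratio of -2.32 (interval -2.80 to -1.79). Of these 46 fragments, however, 24 came from 1 barcode with 81 fragments in all, and without that barcode the log2 ratio was -1.27 (interval -1.90 to -0.52). Olfactory receptor genes, summed, had a log2 ratio of -0.82 (interval -0.87 to -0.77). For the other 9 genes, no barcode outside the called cells gave more than 4 fragments. Without the 1 barcode that gave it most, Mertk had a log2 ratio of 0.24 (interval 0.01 to 0.48).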

How the data were processed

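Long-term HSCs of 24-month-old mice were profiled by DOGMA-seq as 1 pool of cells in 3 libraries. The deposited values are counts without normalization: ATAC fragments with their barcodes, fragments in peak regions and RNA UMIs of each barcode, and tags of each antibody by cell. Per the file headers and the submitters' processing notes, the authors used Cell Ranger ARC 2.0.2 with its mm10 reference, which called cells on ATAC and RNA jointly, merged duplicate read pairs and moved fragment ends to the insertion site. The antibody tags were counted by the authors with CITE-seq-Count (version not given in the sources used here). Other deposited columns used are the cell call and the tag sequences. In the deposited antibody list the CD106 entry carries the descriptive name of the CD68 antibody. It was read as CD106, since the study's reagent list gives its tag to CD106 and another tag to CD68. RNA counts per gene were not analysed here.

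Barcodes of the antibody table with at least 10 tags were kept. Genes were taken from GENCODE M21 (mm10) and promoter sequences from RefSeq (GRCm38.p6, the same bases). A fragment was counted where it overlapped the gene body with 2 kb upstream, or 1 kb on each side of the start, and scaled by all nuclear fragments on the autosomes and sex chromosomes. Strand cannot be read from ATAC, so overlapping genes share fragments. Log2 ratios had 0.5 added to each count, their intervals are exact conditional binomial intervals, levels have exact Poisson intervals and shares of cells exact Clopper-Pearson intervals (scipy 1.17.1). Duplicate-free fragments of 1 cell are not independent where nearby, so intervals are if anything narrow. The interval script was tested on simulated data. Cells in which too many fragments overlapped, a mark of doublets, stayed in except in 1 alternative. Antibody groups were cells with at least 1 tag against none, and the PLT and MUL gates were set at medians.

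The 10 genes, the marker and pathway lists and the alternatives were chosen with earlier results of these data known. Beyond the 10 genes, the 2 highest and 2 lowest of each list and genes at or beside the windows could be named.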

Additional observations from a re-analysis of the deposited data

Results flagged for a closer look

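The 645 called cells with no antibody counts are outside every comparison above and have no control group. They held 305 fragments over the 10 gene windows, or 238 per 1000000 nuclear fragments, against 242 in the kept cells. The log2 ratio of kept over these cells was 0.02 (interval -0.14 to 0.19). Mertk stood at 0.685 FPKM with 93 fragments, Cd68 at 4.55 with 23 and Adgre1 at 0.00615 with 1.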

How the results depend on the processing

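Every group was 1 pool of cells, so depth sets the limits: the 71 CD163 and 82 CD206 tagged cells gave 2 to 44 and 2 to 69 fragments per gene window. Of 161 alternative values, 137 stayed within the interval or within 1.5 times the count and 24 moved. Among ratios put through alternatives, the main interval left out 0 only for Mertk by MERTK tag and Adgre1 against barcodes not called as cells. Neither ratio reversed in its alternatives. In 1 of 12 alternatives, with insertions counted, the interval of Mrc1 by CD206 tag also left out 0 (-1.08 to -0.11). The ratios of the other antigen genes had wider intervals than that of Mertk, so staying within them is a weak check. The log2 ratio of Mertk by MERTK tag was above 0 in 12 of 12 alternatives (0.06 to 0.29), and in 6 of 12 its interval left out 0. It did not with at least 50 tags (363 cells, 0.29), without cells with excess overlaps (0.09), without the deepest 5% of cells (0.11), with fragments shorter than 1 nucleosome (0.17), at the promoter (0.06) or with 2 or more tags against 0 (0.09). With insertions counted, both ends of a fragment enter and the interval is too narrow. With 1 added to each count the interval could not change, because it is taken from the counts without the addition.

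With at least 50 tags, Cd68 by CD68 tag was 0.79 and Mrc1 by CD206 tag 0.44. At the promoter alone, Cd163 by CD163 tag was 3.00 (1 and 9 fragments) and Mrc1 by CD206 tag -1.50 (0 and 61 fragments). With 2 or more tags against 0, Cd68 by CD68 tag was 0.56 and Vcam1 by CD106 tag -0.65. Genes past 1.5-fold then numbered 3 by CD68, 5 by CD163 and 5 by CD206 tag, in groups of 58, 12 and 2 tagged cells. The share of all coding genes past 1.5-fold was not taken for these groups, so the counts cannot be judged against it. By CD163 tag the count of 0 became 2 without cells with excess overlaps, and 1 without the deepest 5% of cells, with fragments shorter than 1 nucleosome or with 1 added to each count. By CD206 tag the count of 1 became 0 with fragments shorter than 1 nucleosome, at the promoter or when the interval was read, and 2 with genes of 50 or more fragments. By MERTK tag the count of 0 became 1 when the interval was read. Against barcodes not called as cells, the count of 0 became 1 when scaled by promoter fragments, with insertions, at the promoter and with genes of 50 or more fragments. The number of promoters above the median was 2 or 3 in each of 8 alternatives. The cause of these changes was not tested, and the share of all coding genes past 1.5-fold was not taken at these alternative settings. Reading the interval, and leaving out the barcode with 24 Adgre1 fragments (-1.27 against -2.32), were chosen after seeing the data. No paired analysis was possible because the labels give 1 sample of each library type and no animal numbers.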
